A study of Homo sapiens with 4 samples.

Results

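mRNA levels of Golgi glycosyltransferases were compared in LX-2 cells that received either miR-6133-5p or miControl. The genes were chosen by their symbols, and they comprised every protein-coding gene whose symbol fits the naming of the *GALNT*, *MGAT*, *B4GALT*, *B3GALT*, *B3GNT*, *FUT*, *ST3GAL*, *ST6GAL*, *ST6GALNAC* and *ST8SIA* families. Of the 63677 genes in the count table, 79 belonged to these 10 families. LX-2 is an established human line of activated hepatic stellate cells, the main matrix-producing cells of the fibrotic liver, and the labels name no genetic change in it. The cells were transfected at 20 nM with a mimic of miR-6133-5p or with miControl, a mimic that served as the negative control, both groups then received 5 ng/mL of rhTGF-β1, and RNA was taken 24 h later. Each group had 2 RNA-seq libraries, named replicates 1 and 2, and all 4 libraries analysed here came from rhTGF-β1-treated cells. Because the labels do not say that the replicates came from separate cultures, p-values here measure the spread between these libraries, which may be technical.

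Secreted and membrane proteins receive most of their sugars in the Golgi apparatus, where each enzyme adds 1 kind of sugar from a nucleotide-sugar donor. GALNT enzymes start mucin-type O-glycans by linking N-acetylgalactosamine to serine or threonine, and MGAT enzymes start and branch the complex N-glycans with N-acetylglucosamine. B4GALT and B3GALT enzymes add galactose, B3GNT enzymes extend the chains, and fucosyltransferases and sialyltransferases cap them. Receptors for growth factors and integrins carry such glycans, and branching and capping are known to affect how long they stay at the cell surface and what binds to them.

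MicroRNAs are known to lower mRNAs by pairing with short sequences in the 3′-UTR, so matches to the hairpin in the glycosyltransferase genes are shown first. The mature sequence of miR-6133-5p was not used here. In its place, each of the 102 stretches of 7 bases in the *MIR6133* hairpin, taken from RefSeq (GRCh38.p14), was searched on the transcript strand of the longest annotated 3′-UTR of each gene. The genes with a perfect complement of bases 72 to 78 of the hairpin had the lowest mean log2 fold change relative to the remaining genes among tested protein-coding genes outside the 10 families, by -0.26. The second lowest, -0.22, belonged to bases 71 to 77, which overlap the first stretch, and to bases 91 to 97, which have the same complement. The stretch was therefore chosen from fold changes of other genes in the same libraries, and a match is a description and is not known to be a site at which the microRNA acts. The difference was below 0 for each of the 102 stretches, the weakest being -0.06. A lower mean with a match is thus not particular to the first stretch. Bases 62 to 91 of the hairpin are printed with the first stretch in capitals.

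MIR6133: cuucauguguGAGGGAGgagguuggguauu

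The matches in 5 of the genes that were lower in miR-6133-5p-treated cells are printed 5′ to 3′ on the transcript strand, with GRCh37 positions. Capitals mark the match to the first stretch (CTCCCTC) in *B4GALT3*, *ST6GALNAC5* and *MGAT5*, and to the second (TCCCTCA) in *FUT4* and *GALNT10*. A CTCCCTC followed by an A holds both matches, as at match 1 of *B4GALT3* and match 2 of *MGAT5*.

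B4GALT3 match 1, chr1:161141455-161141483, minus strand: ggtaggggcctCTCCCTCactgctggact

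B4GALT3 match 2, chr1:161141289-161141317, minus strand: accccaagcccCTCCCTCttccatggaga

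B4GALT3 match 3, chr1:161141153-161141181, minus strand: tgctggaatagCTCCCTCttctggtcctg

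ST6GALNAC5 match 1, chr1:77531074-77531102, plus strand: gtttgtaacttCTCCCTCtcaaatactca

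ST6GALNAC5 match 2, chr1:77531504-77531532, plus strand: tgtgtcatcagCTCCCTCctagcttttaa

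MGAT5 match 1, chr2:135207269-135207297, plus strand: gtaaactcaccCTCCCTCcagccccgcta

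MGAT5 match 2, chr2:135211657-135211685, plus strand: gccttaagacaCTCCCTCaatgccaccct

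FUT4, chr11:94281913-94281941, plus strand: tttaaggctttTCCCTCAaatttattaca

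GALNT10, chr5:153797752-153797780, plus strand: ggggacatgtgTCCCTCAgctcagcagag

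Library totals ran from 51862006 to 93811213 counts, and the deepest library was miR-6133-5p replicate 2. Levels are given as CPM, the usual count scaled to library size, here with totals multiplied by TMM (trimmed mean of M-values) factors, and 3 counts corresponded to 0.0303 to 0.061 CPM. About 1.7 counts were recorded per uniquely mapped read pair, so that a count is not an independent fragment. The stellate cell and fibroblast markers *COL1A1*, *VIM*, *PDGFRB* and *ACTA2* were expressed, whereas *DES*, *LRAT* and *LUM* were at or near 0. *DCN*, *THY1* and *PDGFRA* from the same list reached at most 0.203, 0.928 and 1.42 CPM. Of the 14 markers on this list, 11 could be tested and 4 (*COL1A1*, *COL1A2*, *ACTA2* and *TAGLN*) were lower in miR-6133-5p-treated cells, by the thresholds given below. That was 36.4% of those tested, against 5.54% of all tested genes. All 14 markers together summed to between 5083 and 5602 CPM in the miControl libraries and to between 3029 and 3368 CPM in the miR-6133-5p libraries. Hepatocyte markers summed to at most 0.141 CPM in any library, with *TTR* and *HNF4A* at 0, and leukocyte markers to at most 2.34 CPM, with *CD163* and *CD3E* at 0. The 3 endothelial markers that could be matched, without *PECAM1*, summed to 2.66 to 2.99 CPM in the miControl libraries and 2.46 to 2.60 CPM in the miR-6133-5p libraries. The 4 epithelial markers summed to 3.70 to 4.59 CPM in the miControl libraries and 6.82 to 7.32 CPM in the miR-6133-5p libraries, almost all of it *KRT7*, while *EPCAM* and *CDH1* were near 0. Whether these shifts in markers bear on the glycosyltransferase genes was not tested.

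Enough counts for a test were present for 57 of the 79 genes, and 8 of them passed both thresholds given below. *B3GALT2*, *B4GALT3*, *ST3GAL1*, *ST6GALNAC5*, *FUT4*, *GALNT10* and *MGAT5* were lower in miR-6133-5p-treated cells, between 1.76-fold and 6.4-fold, and *GALNT12* was 1.92-fold higher. These 8 genes came from 7 of the 10 families, with 1 lower gene in each of those families and the higher gene in the *GALNT* family. As bulk RNA was measured, fewer cells with an mRNA and less of it per cell cannot be told apart. Genes were called lower or higher if the adjusted p-value was below 0.01 and the log2 fold change lay beyond 0.8, by the quasi-likelihood test of edgeR (2-sided) with Benjamini–Hochberg adjustment over all 18252 tested genes. All adjusted p-values given hereafter come from this test. The 7 lower genes were 12.3% of the tested glycosyltransferase genes, against 5.54% of all tested genes, and the 1 higher gene was 1.75%, against 2.90%. All tested genes include noncoding ones, whereas these families hold protein-coding genes alone. Of the 13412 tested protein-coding genes with a 3′-UTR, 879 were called lower. With 2 libraries per group, exact permutation of the labels of 1 gene gives no p-value under 0.333.

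Over all members, including those not called, log2 fold changes lay more often below 0 than among all tested genes. Of the 57 genes, 38 had a log2 fold change below 0, which is 66.7% against 47.7% of all tested genes, and their median was -0.18 against 0.03. The adjusted p-value was below 0.01 for 20 genes, 14 lower and 6 higher, or 35.1% against 18.8% of all tested genes. The groups did not overlap for 36 genes, of which 24 were below miControl in both miR-6133-5p libraries and 12 above, and they overlapped for 21. The 36 genes were 63.2% of those tested, close to the 64.4% of all tested genes. When libraries were scaled by their totals without TMM factors, the median of all tested genes moved to 0.19 and that of the glycosyltransferase genes to -0.02. The distance between the medians was -0.21 under both scalings. This is no separate check, since a change of scaling shifts all genes by nearly the same amount. With library totals alone, 30 of the 57 genes were below 0 and 27 above (52.6% below, against 35% of all tested genes), and the adjusted p-value was below 0.01 for 10 lower and 7 higher genes. Among the 49 genes not called, 31 were below 0 and 18 above with TMM factors, and 23 were below and 26 above with totals, so the direction of these smaller differences depends on the scaling. No test of the families as a whole was made, since they were chosen with results of these libraries known.

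**Figure D1:**
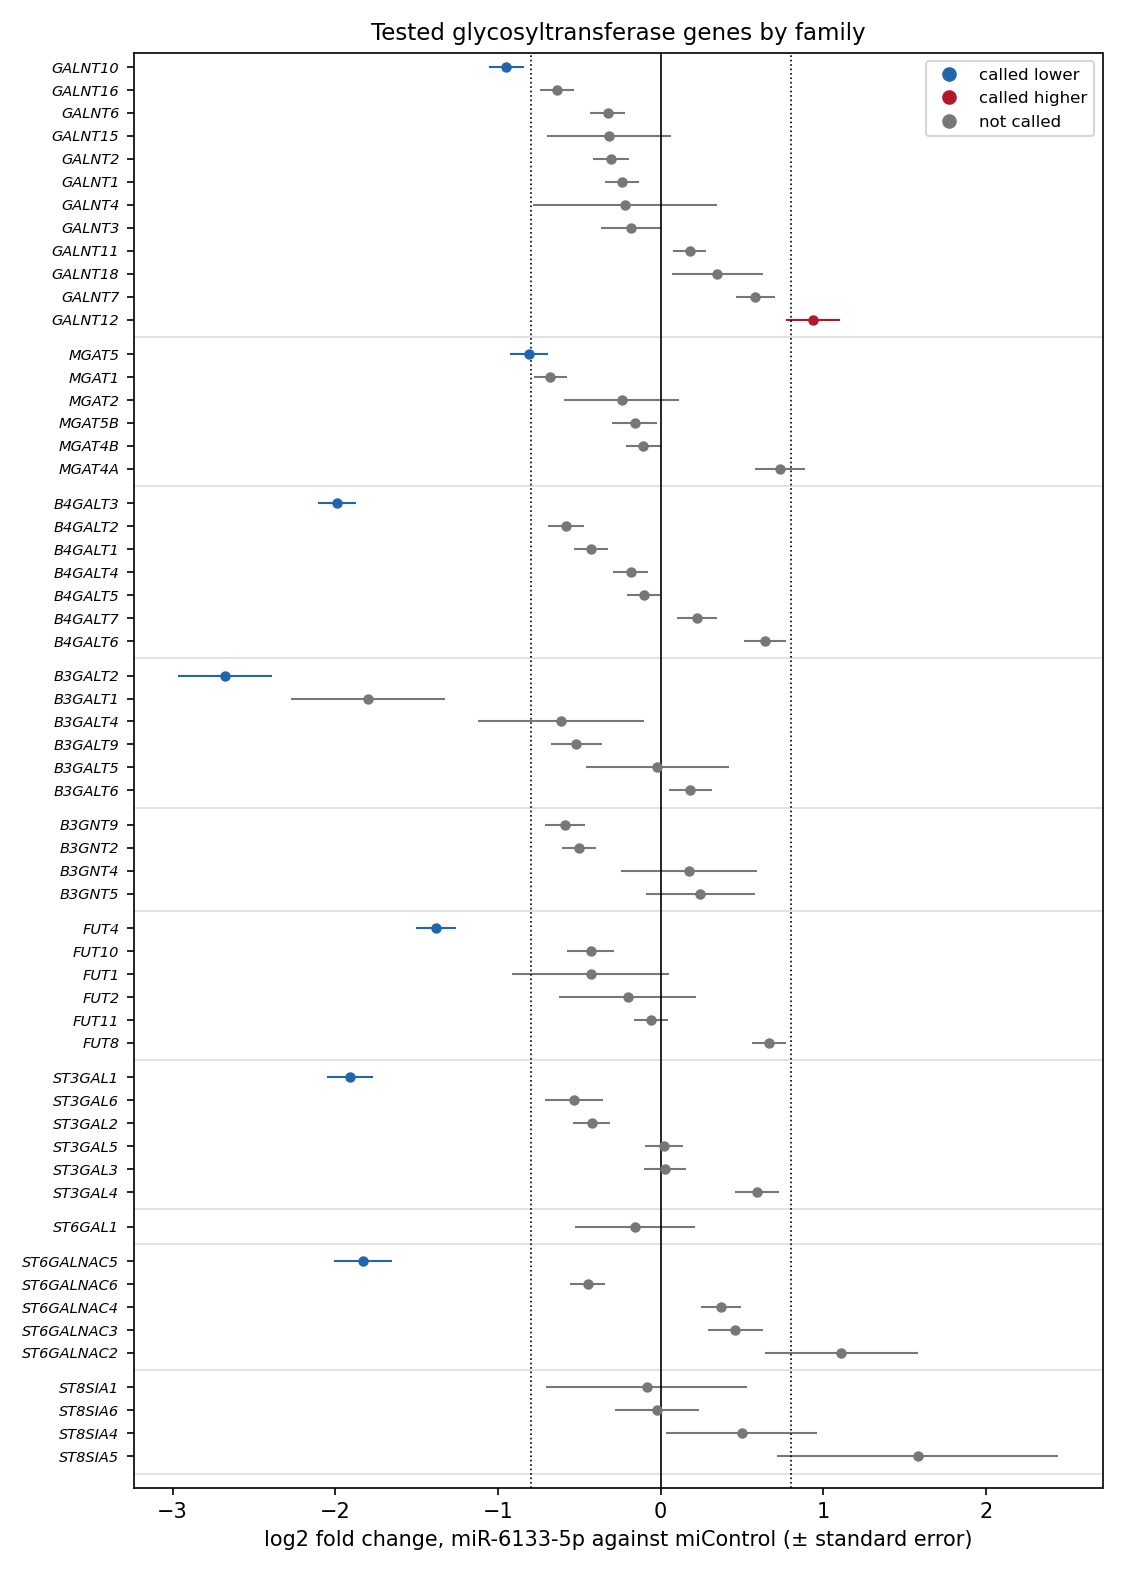
The log2 fold change of miR-6133-5p against miControl (horizontal axis, bars ± standard error) is plotted for the 57 tested glycosyltransferase genes, grouped by family, with dotted lines at 0.8 on either side of 0. Blue marks the 7 genes called lower, red the 1 called higher and grey the others. Each blue point is the lowest gene of its family.

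Among the enzymes that start O-glycans, *GALNT10* was lower and *GALNT12* was higher, and the other tested *GALNT* genes lay within 0.64 of 0 on the log2 scale. *GALNT10* (ENSG00000164574, chromosome 5 from 153570290 to 153800544) had levels of 231 and 227 CPM in the miControl libraries and 112 and 125 CPM in the miR-6133-5p libraries. The groups did not overlap, and the log2 fold change was -0.95 (SE, the standard error, 0.105; adjusted p = 1.93e-05). With libraries scaled by their totals it was -0.78, short of 0.8. *GALNT12* (ENSG00000119514, chromosome 9 from 101569952 to 101612363), a much less abundant gene, was at 3.03 and 2.92 CPM with miControl and at 5.74 and 5.67 CPM with miR-6133-5p. Replicates differed little, and the log2 fold change was 0.94 (SE 0.165, adjusted p = 0.000826). Its adjusted p-value was 0.0156 without miControl replicate 1 and 0.0218 without miControl replicate 2, both above 0.01, and 20.9% of its exon bases lie opposite the exons of another gene.

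*GALNT1*, a widely expressed initiating enzyme, had the highest level per length of the family, with a log2 fold change of -0.24 (adjusted p = 0.11). A further pair of *GALNT* genes, *GALNT16* and *GALNT7*, named after their values were seen, passed the adjusted p-value alone. *GALNT16* was at 51.6 and 49.4 CPM with miControl and at 31.5 and 33.3 CPM with miR-6133-5p, which gave a log2 fold change of -0.64 (adjusted p = 0.000429). *GALNT7*, whose enzyme prefers peptides that already carry N-acetylgalactosamine, was at 15.3 and 17.6 CPM with miControl and at 23.6 and 25.6 CPM with miR-6133-5p, which gave a log2 fold change of 0.58 (adjusted p = 0.00239). Both genes were thus separated between the groups, in opposite directions. *GALNT2*, *GALNT3*, *GALNT4*, *GALNT6*, *GALNT11*, *GALNT15* and *GALNT18* did not pass, and nearly all exon bases of *GALNT4*, 93.4%, are shared with a read-through gene on the same strand. *GALNT5*, *GALNT8*, *GALNT9*, *GALNT13*, *GALNT14* and *GALNT17* were not tested, with at most 25 counts in any library.

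In the *MGAT* family, which sets the number of branches on N-glycans, *MGAT5* was lower and *MGAT4A*, which adds a different branch, had values on the opposite side of 0. *MGAT5* (ENSG00000152127, chromosome 2 from 134877554 to 135212192) makes the branch that carries long lactosamine chains and was at 70.7 and 74.6 CPM with miControl and at 37 and 45.6 CPM with miR-6133-5p. The groups were separated, although the miR-6133-5p replicates differed by more than the miControl replicates. Its log2 fold change of -0.81 (SE 0.117, adjusted p = 0.000175) lay just past the threshold. It was -0.797 without miControl replicate 2, -0.67 without miR-6133-5p replicate 1 and -0.65 with libraries scaled by their totals, and no longer called in any of these.

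*MGAT1*, whose enzyme opens the path to all hybrid and complex N-glycans, was at 144 and 139 CPM with miControl and at 86.5 and 90.6 CPM with miR-6133-5p. This log2 fold change of -0.68 (adjusted p = 0.000236) passed the adjusted p-value and not the size. *MGAT4A* was at 4.31 and 4.81 CPM with miControl and at 7.08 and 8.07 CPM with miR-6133-5p, which gave a log2 fold change of 0.73 (adjusted p = 0.0029). It was 0.90, past 0.8, with libraries scaled by their totals and 0.82 without miR-6133-5p replicate 1. *MGAT4B*, with the highest level per length in the family, had a log2 fold change of -0.11 (adjusted p = 0.496), and *MGAT5B* was not past either threshold. *MGAT2* had 38 to 63 counts per library, with overlapping groups, and 92% of its exon bases lie opposite another gene, so that its counts are uncertain if the counting ignored the strand. *MGAT3*, *MGAT4C* and *MGAT4D* had at most 8 counts in any library and were not tested.

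*B4GALT3* was the gene of the *B4GALT* family with the largest difference, and it went from the third highest level per length in the family to the lowest. *B4GALT3* (ENSG00000158850, chromosome 1 from 161141100 to 161147758) was at 33.9 and 34.6 CPM with miControl and at 8.73 and 8.57 CPM with miR-6133-5p. Replicates were nearly identical in each group, and the log2 fold change was -1.99 (SE 0.114, adjusted p = 1.02e-07), and leaving out single libraries gave -2.01 to -1.97. The study lists *B4GALT3* and *FUT4* among the predicted targets of miR-6133-5p that it followed up by siRNA, and since it picked those from these libraries, their fall is not independent evidence. Of the genes it knocked down, the paper reports a significant fall of both *COL1A1* and *ACTA2* past its size cutoff for *TGFBR2* alone. Of the exon bases of *B4GALT3*, 28.7% lie opposite exons of *PPOX*, and the strand setting of the counting is not given in the sources used here.

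All 7 genes of the family were tested, and in each the groups did not overlap, as was also the case for 64.4% of all tested genes. *B4GALT1*, the main galactosyltransferase of N-glycans in many tissues, was at 33.2 and 33.8 CPM with miControl and at 25.3 and 24.5 CPM with miR-6133-5p, which gave a log2 fold change of -0.43 (adjusted p = 0.00768). *B4GALT2* had a log2 fold change of -0.58 (adjusted p = 0.00137). *B4GALT6*, which makes lactosylceramide for glycolipids, was at 10.3 and 11.4 CPM with miControl and at 15.9 and 18 CPM with miR-6133-5p, and the resulting log2 fold change of 0.64 (adjusted p = 0.00183) became 0.81 with libraries scaled by their totals. *B4GALT5*, with the same reaction and the highest level per length in the family, had a log2 fold change of -0.11 (adjusted p = 0.484). *B4GALT4* and *B4GALT7*, the latter an enzyme of the linker of proteoglycan chains, had log2 fold changes of -0.18 and 0.22 and did not pass.

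*B3GALT2* showed the largest difference of all tested glycosyltransferase genes. *B3GALT2* (ENSG00000162630, chromosome 1 from 193147860 to 193155743), which encodes a galactosyltransferase of type-I chains, was at 2.60 and 2.48 CPM with miControl and at 0.398 and 0.393 CPM with miR-6133-5p. These levels rest on 128 and 135 counts with miControl and 26 and 39 counts with miR-6133-5p, and the groups were far apart, with a log2 fold change of -2.68 (SE 0.288, adjusted p = 1.51e-05). *B3GALT1*, the closest gene outside the thresholds, was at 0.549 and 0.789 CPM with miControl and at 0.214 and 0.171 CPM with miR-6133-5p, which gave a log2 fold change of -1.80 (SE 0.475, adjusted p = 0.0114). It was called with no filter on low counts (adjusted p = 0.00137, edgeR) and when at least 10 counts were required in every library (adjusted p = 0.00314, edgeR), and was not called by DESeq2 (adjusted p = 0.0286).

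*B3GALT6*, which encodes another enzyme of the proteoglycan linker, had the highest level per length in this family and a log2 fold change of 0.18 (adjusted p = 0.323), with overlapping groups. *B3GALT4*, *B3GALT5* and *B3GALT9* did not pass, with log2 fold changes of -0.61, -0.02 and -0.52. Of the chain-extending *B3GNT* genes, *B3GNT2*, the main enzyme of polylactosamine, was at 35.1 and 34.8 CPM with miControl and at 25.4 and 24.0 CPM with miR-6133-5p. *B3GNT9* was at 16.4 and 16.6 CPM with miControl and at 11.8 and 10.2 CPM with miR-6133-5p. Both were separated between the groups, and their log2 fold changes of -0.50 and -0.59 (adjusted p = 0.00287 and 0.00296) passed the adjusted p-value without reaching 0.8. *B3GNT4* and *B3GNT5* overlapped between the groups, and *B3GNT3*, *B3GNT6*, *B3GNT7* and *B3GNT8* had at most 10 counts in any library and were not tested.

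**Figure D2:**
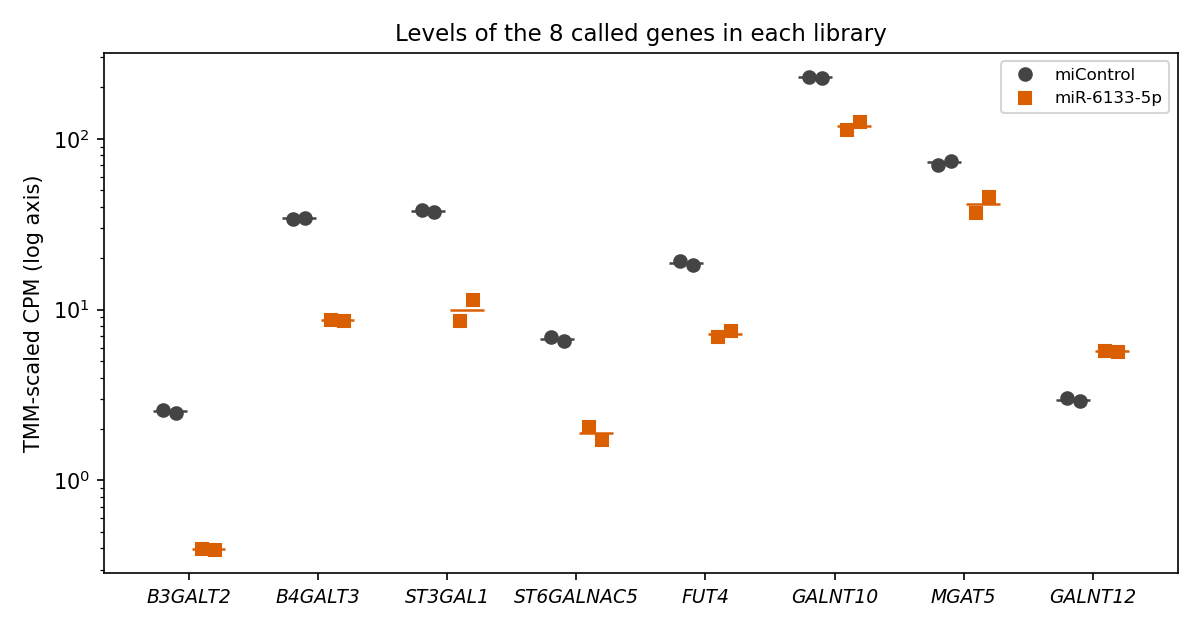
TMM-scaled CPM (log axis) is plotted for the 8 called glycosyltransferase genes in each of the 4 libraries, with circles for miControl, squares for miR-6133-5p and a line at each group's mean (n = 2). In the 7 genes to the left both squares lie below both circles, and in *GALNT12* both lie above, at 5.74 and 5.67 CPM against 3.03 and 2.92 CPM.

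Among the fucosyltransferases, *FUT4* was lower, and *FUT8*, the enzyme of core fucose on N-glycans, had higher values in the miR-6133-5p libraries. *FUT4* (ENSG00000196371, chromosome 11 from 94277087 to 94283061), which encodes an enzyme of the Lewis x epitope, was at 19.2 and 18.2 CPM with miControl and at 6.88 and 7.47 CPM with miR-6133-5p. The groups were separated by more than the spread in either, with a log2 fold change of -1.38 (SE 0.124, adjusted p = 3.28e-06). Exons of other genes cover 10.1% of its exon bases on the same strand and 10.9% on the opposite strand. *FUT8* (ENSG00000033170, chromosome 14 from 65877310 to 66210839) was at 83.2 and 89.5 CPM with miControl and at 141 and 133 CPM with miR-6133-5p. Both miR-6133-5p libraries were higher, and the log2 fold change of 0.665 (SE 0.103, adjusted p = 0.000326) passed the adjusted p-value and not the size, although it was 0.83, and called, with libraries scaled by their totals. *FUT1*, *FUT2*, *FUT10* and *FUT11* did not pass, with log2 fold changes from -0.43 to -0.06. *FUT3*, *FUT5*, *FUT6*, *FUT7* and *FUT9*, which make Lewis-type epitopes in blood cells, epithelia or brain, had 0 counts in every library except for 3 counts of *FUT7* in miR-6133-5p replicate 2.

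*ST3GAL1* was the most abundant of the *ST3GAL* genes per length with miControl and was lower with miR-6133-5p, whereas *ST3GAL4* had higher values. *ST3GAL1* (ENSG00000008513, chromosome 8 from 134467091 to 134584169) encodes the enzyme that caps core O-glycans with sialic acid, and it was at 38.5 and 37.1 CPM with miControl and at 8.53 and 11.4 CPM with miR-6133-5p. The miR-6133-5p replicates differed from each other, yet both lay far below miControl, and the log2 fold change was -1.91 (SE 0.14, adjusted p = 5.69e-07), and leaving out single libraries gave -2.15 to -1.72. *ST3GAL4*, which acts on the galactose ends of N-glycans, was at 9.91 and 9.80 CPM with miControl and at 16.5 and 13.3 CPM with miR-6133-5p, which gave a log2 fold change of 0.59 (adjusted p = 0.00514). *ST3GAL2* and *ST3GAL6* had log2 fold changes of -0.425 and -0.53 (adjusted p = 0.0139 and 0.0383) and were separated between the groups. *ST3GAL3* and *ST3GAL5*, the latter the enzyme that makes ganglioside GM3, were within 0.03 of 0 on the log2 scale and overlapped.

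*ST6GALNAC5* was lower, and *ST6GALNAC2*, *ST6GALNAC3* and *ST6GALNAC4* had higher values without passing the thresholds. *ST6GALNAC5* (ENSG00000117069, chromosome 1 from 77333165 to 77533231), which encodes an enzyme of ganglioside synthesis, was at 6.90 and 6.54 CPM with miControl and at 2.05 and 1.73 CPM with miR-6133-5p. The groups were well separated, with a log2 fold change of -1.83 (SE 0.178, adjusted p = 6.26e-06). *ST6GALNAC6*, with the highest level per length in the family, was at 39.1 and 36.4 CPM with miControl and at 28.6 and 26.7 CPM with miR-6133-5p, which gave a log2 fold change of -0.45 (adjusted p = 0.00649), and 47% of its exon bases are shared with a gene on the same strand. *ST6GALNAC2* had 10 and 19 counts with miControl and 32 and 70 counts with miR-6133-5p, which gave a log2 fold change of 1.11 (adjusted p = 0.0928), and 39.8% of its exon bases are shared with a gene on the same strand. *ST6GALNAC3* and *ST6GALNAC4* had log2 fold changes of 0.46 and 0.37 (adjusted p = 0.0589 and 0.0362).

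The remaining sialyltransferases were scarce in LX-2 cells. *ST6GAL1*, the enzyme that adds sialic acid to N-glycans in the linkage common on plasma proteins, was at 0.692 and 0.881 CPM with miControl and at 0.551 and 0.847 CPM with miR-6133-5p, with overlapping groups (log2 fold change -0.16, adjusted p = 0.8). *ST8SIA6*, the most abundant of its family per length, was at 1.61 and 1.74 CPM with miControl and at 1.39 and 1.89 CPM with miR-6133-5p and also overlapped (log2 fold change -0.02, adjusted p = 0.96). *ST8SIA5* had 0 and 8 counts with miControl and 15 and 23 counts with miR-6133-5p. The log2 fold change of *ST8SIA5*, 1.58 (adjusted p = 0.195), was 0.64 without miControl replicate 1, the library without counts, and has no readable size without miControl replicate 2, when only 0 counts remain. *ST8SIA1*, the enzyme of ganglioside GD3, and *ST8SIA4*, an enzyme of polysialic acid, had overlapping groups. *ST6GAL2*, *ST6GALNAC1*, *ST8SIA2* and *ST8SIA3* had at most 9 counts in any library and were not tested.

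Levels were next compared between genes after division by exon length, as CPM per kb of exon, using the exons of a GENCODE annotation that need not be the one used for counting. The composition of several families was different in the miR-6133-5p libraries. In the *ST3GAL* family, *ST3GAL1* made up 40.5% and 39.8% of the summed CPM per kb with miControl and 12.3% and 17.7% with miR-6133-5p. *ST3GAL4* made up 15.4% and 15.5% with miControl and 35.0% and 30.3% with miR-6133-5p. Per length, the first place in the family thus passed from *ST3GAL1* to *ST3GAL4*, with no overlap between the groups. *ST3GAL1* and *ST3GAL5* were not separated in the miR-6133-5p libraries at 0.971 and 1.30 against 1.48 and 1.27 CPM per kb. In CPM without division by length, *ST3GAL5* was above *ST3GAL4* in both miR-6133-5p libraries, at 24.1 and 20.6 against 16.5 and 13.3 CPM. The first place of *ST3GAL4* thus rests on the exon lengths used, 5962 bases against 16300 for *ST3GAL5*.

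Other families kept their leading gene while the share of the lower gene was smaller. *FUT8* went from 46.7% and 49.9% of the *FUT* sum with miControl to 66.6% and 63.5% with miR-6133-5p, and *FUT4* from 12.6% and 11.8% to 3.80% and 4.17%. *B4GALT3* made up 11.4% and 12.3% of the *B4GALT* sum with miControl and 3.86% and 3.72% with miR-6133-5p, while *B4GALT5* remained first. *GALNT10* made up 22.7% and 21.3% of the *GALNT* sum with miControl and 13.8% and 14.7% with miR-6133-5p. These shares do not depend on the scaling of the libraries. In the *ST6GALNAC* family *ST6GALNAC6* was first per length with miControl, at 52% in both libraries, and *ST6GALNAC4* was first with miR-6133-5p, at 50% and 48.4%. In CPM without division by length, *ST6GALNAC6* stayed above *ST6GALNAC4* in both miR-6133-5p libraries, at 28.6 and 26.7 against 17.4 and 15.5 CPM. Neither gene was called, and 47% of the exon bases of *ST6GALNAC6* are shared with another gene.

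Summed over all members, the CPM per kb of the families differed less than those of the called genes. The ratio of miR-6133-5p to miControl was 0.797 for *GALNT*, 0.799 for *MGAT*, 0.787 for *B4GALT*, 0.698 for *B3GNT* and 0.712 for *ST3GAL*, and it remained below 1 for these families with libraries scaled by their totals, at 0.782 to 0.895. It was 1.18 for *FUT*, or 1.32 with totals, in which *FUT8* has the largest part. The ratios of *B3GALT*, *ST6GAL* and *ST6GALNAC* were 0.958, 0.889 and 0.93, and with totals 1.07, 0.996 and 1.04, so that *B3GALT* and *ST6GALNAC* changed sides of 1. The scarce *ST8SIA* genes had a ratio of 1.1.

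**Figure D3:**
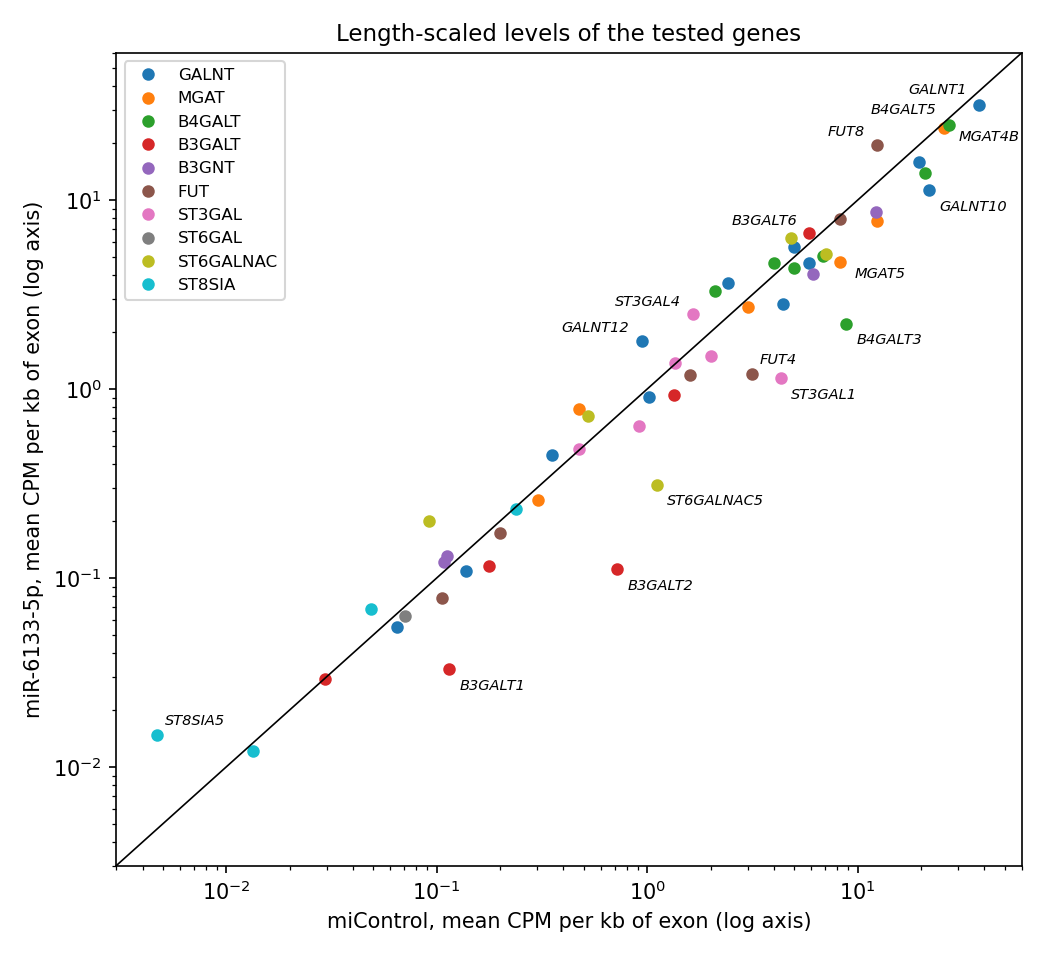
Mean CPM per kb of exon is plotted for the 57 tested genes with miControl (horizontal) and miR-6133-5p (vertical), both on log axes, colored by family, with a diagonal where the groups are equal. *B3GALT2*, *ST6GALNAC5*, *ST3GAL1* and *B4GALT3* lie farthest below the diagonal among the called genes, whereas the abundant *GALNT1*, *B4GALT5* and *MGAT4B* lie close to it and *FUT8* lies above.

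Matches to the first hairpin stretch were then counted in the longest annotated 3′-UTR of each tested gene. Of the 57 glycosyltransferase genes, 20 held at least 1 match (35.1%), against 3049 of 13412 tested protein-coding genes (22.7%). The glycosyltransferase genes with a match had a median log2 fold change of -0.37 and those without one of -0.16, whereas all tested protein-coding genes had medians of -0.14 and 0.08. Of the 20 genes with a match, 4 were called lower (20%), and of the 37 without, 3 were (8.11%), beside 13.5% and 4.5% of all tested protein-coding genes. The stretch was chosen by the fold changes of nearly all these protein-coding genes, so a difference among them follows from that choice. The 3′-UTRs with a match were longer, with a median of 3536 against 2064 bases in the glycosyltransferase genes and 2664 against 1237 bases in all, and longer sequences hold a given match more often. Outside the families, a match to any of the 102 hairpin stretches went with a lower mean log2 fold change. Whether the differences above go with the match or with the longer 3′-UTRs was not tested. The canonical transcripts in place of the longest 3′-UTRs gave the same 20 of 57.

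*B4GALT3* held 3 matches in a 3′-UTR of 506 bases, at positions 134, 300 and 436 after the stop codon. Of the 1165 genes with a 3′-UTR within 20% of that length, *B4GALT3* included, 2 held as many (0.172%). *ST3GAL1* held 6 matches in 4916 bases, as many as 9 of 1256 genes of like length (0.717%). Its matches at positions 2536 and 2540 overlap each other, and overlapping matches were counted separately in all genes. *ST6GALNAC5* and *MGAT5* held 2 matches each, as did 12.9% and 17.5% of the genes of like length. *FUT4* and *GALNT10* lacked the first match and held 1 match to the second stretch each, which was present in 16 of the 57 glycosyltransferase genes (28.1%) and in 15.9% of all tested protein-coding genes. Their 3′-UTRs had 4169 and 4012 bases, and 25.6% and 25% of the genes of like length held as many. With both stretches considered, 24 of the 57 glycosyltransferase genes (42.1%) and 29.5% of all tested protein-coding genes held a match. Among the genes called lower, 6 of the 7 glycosyltransferase genes held one, *B3GALT2* being without, against 480 of 879 protein-coding genes (54.6%). Both stretches were chosen by the fold changes of tested protein-coding genes outside the families, so the latter share is not independent of that choice. Of the 33 glycosyltransferase genes with neither match, 1 was called lower (3.03%) and 1 higher, *GALNT12*, against 4.22% called lower among all 9452 such genes.

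Matches were also present in genes that were not called lower. *ST8SIA5* held 7 matches in 12221 bases, the highest number in the families and as many as 2 of 147 genes of like length (1.36%), and its log2 fold change, 1.58, rests on the few counts given above. Its matches at positions 1330 and 1334 overlap each other. *MGAT4A* with 2 matches and *B4GALT6* and *ST6GALNAC4* with 1 each had log2 fold changes of 0.73, 0.64 and 0.37, and *B3GALT5* with 3 matches was at -0.02. *MGAT1*, *GALNT16*, *B4GALT1* and *ST6GALNAC6*, which passed the adjusted p-value with log2 fold changes of -0.68, -0.64, -0.43 and -0.45, held 1, 2, 2 and 1 matches. Besides *FUT4* and *GALNT10*, *B4GALT4* and *ST6GALNAC3* held the second match alone, and their log2 fold changes were -0.18 and 0.46, neither of them called.

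**Figure D4:**
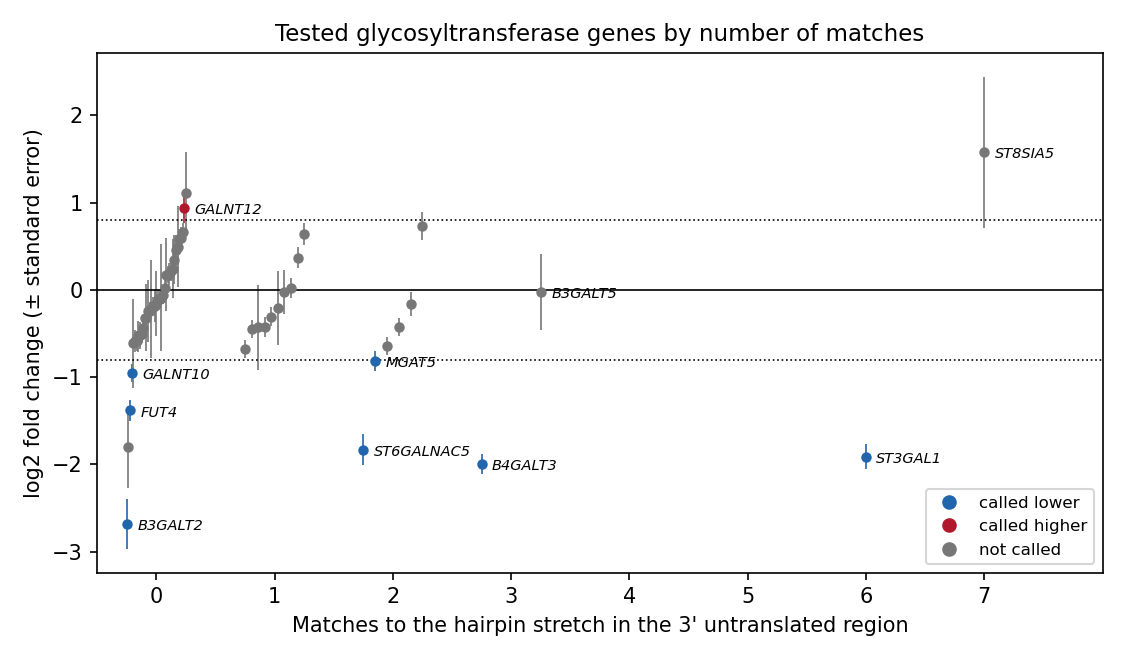
The log2 fold change (vertical axis, bars ± standard error) is plotted against the number of matches to the first hairpin stretch in the longest 3′-UTR for the 57 tested genes, with points spread sideways around each whole number and dotted lines at 0.8 on either side of 0. Of the 7 genes called lower (blue), *ST3GAL1*, *B4GALT3*, *ST6GALNAC5* and *MGAT5* have 6, 3, 2 and 2 matches and the other 3 have 0.

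The enzymes and carriers around these families were examined with the same fit. Several genes of sugar donor supply were lower. Of the 25 tested genes of nucleotide-sugar synthesis and transport, 5 were called lower and 0 higher, by edgeR and by DESeq2 alike. The median log2 fold change was -0.14, and the 5 lower genes were 20% of this list, against 5.54% of all tested genes. They were *SLC35A2*, the UDP-galactose transporter (35.4 and 30.4 CPM in the miControl libraries, 13.0 and 12.2 CPM in the miR-6133-5p libraries), *SLC35C1*, the GDP-fucose transporter (28.1 and 28.1 CPM, then 13.7 and 11 CPM), *SLC35A4*, and the hexosamine pathway genes *GFPT1* and *GNPNAT1*. Their log2 fold changes were -1.38, -1.19, -1.03, -0.97 and -1.15 in this order (adjusted p at most 1.55e-05), and in each the groups did not overlap. Of the 9 genes of N-glycan trimming and the 6 of the core O-glycan enzymes, 0 were called by edgeR or DESeq2, 4 and 1 had an unadjusted p-value below 0.05, and the medians were 0.000338 and 0.11. Of the 25 genes above, 14 had such an unadjusted p-value. The share of all tested genes with an unadjusted p-value below 0.05 was not counted. It is at least 18.8%, the share with an adjusted p-value below 0.01, so these counts are not read as an excess.

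Of the 17 genes for Golgi tethering and homeostasis, *GORASP1* and *GORASP2*, which encode the stacking proteins of the Golgi cisternae, were called lower, with log2 fold changes of -1.39 and -1.21 (adjusted p = 9.25e-07 and 1.94e-06). They were 11.8% of this list, against 5.54% of all tested genes. *TRIP11*, the gene of a Golgi tether, was called higher at 20.4 and 32.6 CPM with miControl but 47.0 and 56.1 CPM with miR-6133-5p, which gave a log2 fold change of 0.96 (adjusted p = 0.00102), with miControl libraries that differed from each other, and it was not called by DESeq2. It was 5.88% of the list, against 2.90% of all tested genes. Of the 24 genes of the N-glycan precursor and its transfer in the endoplasmic reticulum, *DPAGT1*, *ALG2* and *OSTC* were called lower, with log2 fold changes of -1.07, -0.85 and -0.86, or 12.5% of this list against the same 5.54%. *ALG2* and *OSTC* lie closer to the threshold than *GALNT10*, which was not called with library totals alone. Genes of the lists around the families were not counted with that scaling. Among the 16 tested glycosyltransferase genes outside the 10 families, *LFNG*, which modifies Notch receptors, and *B4GAT1*, which acts on dystroglycan, were called higher, with log2 fold changes of 1.92 and 0.87 (adjusted p = 6.36e-07 and 0.000122), or 12.5% of this list against 2.90% of all tested genes, and 0 were called lower by edgeR or DESeq2, with 11 of the 16 at an unadjusted p-value below 0.05. Of the 4 tested sialidase and fucosidase genes, 0 were called by edgeR or DESeq2, and 2 had an unadjusted p-value below 0.05. As above, these counts of unadjusted p-values have no share of all tested genes beside them and are not read as an excess.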

How the data were processed

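Libraries of LX-2 cells (2 miControl, 2 miR-6133-5p) were made with a TruSeq stranded mRNA kit and sequenced paired-end with 150 bases per mate. Alignment by the authors was to GRCh37 through GeneData Profiler, and the submitters' processing notes name STAR 2.5.3a and featureCounts of Subread 1.6.4. The deposited matrix holds raw counts per Ensembl gene, identical to the single-library files. The deposited mapping summaries give the fraction of uniquely mapped pairs, 96.52% to 96.76%. The strand setting and annotation release of the counting are not given in the sources used here.

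Counts were filtered with filterByExpr, scaled by TMM factors and analysed in edgeR 4.0.16 (R 4.3.3, glmQLFit), without a block, as the paper's methods name none. Both thresholds, 0.01 for adjusted p-values and 0.8 for log2 fold changes, follow those methods. Standard errors were derived from the F statistic, and CPM used no pseudocount. Symbols, exons and 3′-UTRs came from GENCODE v44 lifted to GRCh37, which gave a symbol to 55665 genes.

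The members, gene lists and named genes were chosen with earlier results of these data known. Named genes were all called members, *B4GALT3* and *FUT4*, and per family the highest level per length and the largest change. Genes named outside this rule for their values alone passed the adjusted p-value or lie near a threshold. The alternatives were RLE scaling, library totals alone, DESeq2 1.42.0, 2 other count filters, a replicate block, glmTreat, an adjusted p-value of 0.05 and each library left out. The hairpin search was added after the data were seen. The edgeR and DESeq2 fits and the hairpin search were tested on simulated data. RT-qPCR, siRNA and protein data were not analysed here.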

Additional observations from a re-analysis of the deposited data

How the results depend on the processing

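Scaling by library totals alone changed most: 5 members were called lower and 4 higher (*GALNT12*, *FUT8*, *MGAT4A* and *B4GALT6*), and the members' median log2 fold change was -0.0203. With glmTreat, which tests the fold change against 0.8, 5 were lower and 0 higher. With each library left out in turn, 6 to 7 were lower and 0 to 2 higher, and the median lay between -0.289 and -0.0943. With 1 library left in a group, that library is assumed to vary like the other group. *B3GALT2*, *B4GALT3*, *ST3GAL1*, *ST6GALNAC5* and *FUT4* were called lower under every alternative run. *GALNT10* and *MGAT5* were not called with library totals or glmTreat.

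Replicate numbers do not mark a stated pairing, and the deviations of same-numbered libraries had a correlation of 0.049 across genes over 2 pairs. With a replicate block, 8 members were called lower, *B3GALT1* being added, and 1 higher, and the median was -0.18.

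Of 226 values of the 19 genes named by the rule under the alternatives, 208 kept their sign and their side of the thresholds, 9 lost the call, 1 gained it and 8 changed sign. The sign changes were in genes not called: with library totals *MGAT4B* was at 0.0572, *B4GALT5* at 0.0591, *ST6GAL1* at 0.0074 and *ST8SIA6* at 0.14, and with single libraries left out *ST6GAL1* ran from -0.516 to 0.104 and *ST8SIA6* from -0.268 to 0.17. Of the 57 tested members, 40 kept 1 sign under every alternative. Members with under about 1 CPM have wide errors, and 22 could not be tested at this depth.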
